A study of Mus musculus with 18 samples.

Results

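The 9 genes described here encode parts of the machinery that writes and reads methylation of lysine 9 of histone H3 (H3K9): the methyltransferases Setdb1, Ehmt1, Ehmt2 and Suv39h2, the co-repressor Trim28 (KAP1), the heterochromatin protein 1 (HP1) genes Cbx1, Cbx3 and Cbx5, and the HUSH complex gene Mphosph8. They were taken by symbol from both deposited count tables, and all 9 were found among 25965 rows. The data were RNA-seq counts of bone marrow B cells of C57BL/6 mice aged 12 to 16 months, sorted from flushed femurs as CD45.2+ B220+ Mac1- cells. The question of the design was what the loss of the second Smchd1 allele changes in these cells.

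There were 5 female and 4 male libraries labelled Smchd1[del/+] Vav.Cre[T/+] (del/+ below) and 5 female and 4 male libraries labelled Smchd1[del/del] Vav.Cre[T/+] (del/del below). All animals carried the Vav.Cre transgene, which drives recombination in blood-forming cells, and all carried at least 1 deleted Smchd1 allele. The only controls were thus heterozygous. Nothing in the labels names a litter or a sorting day, so p-values measure the spread between these libraries. Females and males were deposited in separate tables, so a difference between the sexes and a difference between the tables cannot be told apart.

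H3K9 methylation marks silent chromatin, and di- and trimethylated H3K9 is bound by the chromodomains of HP1 proteins and of MPHOSPH8. KRAB zinc finger proteins bind DNA sequences such as retroviral repeats and recruit TRIM28, which brings in SETDB1 and HP1. The HUSH complex, of which MPHOSPH8 is the chromodomain subunit, works together with SETDB1, and EHMT1 and EHMT2 act as a pair on euchromatic genes. SMCHD1 is a silencing protein best known for the inactive X chromosome, where H3K9 methylation is also found, and LRIF1 is known as a link between SMCHD1 and HP1.

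Library totals ran from 9788112 to 29405395 counts, and each of the 9 genes had between 126 and 13069 counts in every library. Levels below are CPM, counts divided by the TMM-scaled library size. Smchd1, the targeted gene, was lower in every del/del than in every del/+ library of its sex. It lay between 230.1 and 269 CPM in female del/+ and between 127 and 171.1 in female del/del libraries, and between 277 and 330.5 in male del/+ and between 164 and 200.5 in male del/del libraries. The B cell gene Pax5 was present in every library, between 253 and 340 CPM. The T cell gene Cd3e reached at most 7.57 CPM, while Cd4, of the same list, reached 67.4 CPM. Myeloid genes were present in every library of this Mac1- sort, with S100a9 between 248 and 1601 CPM and Itgam, which encodes a chain of Mac1, between 34.9 and 111 CPM. Siglech, a gene of plasmacytoid dendritic cells, which can carry B220, lay between 62.3 and 448 CPM. The part of these other cells in the results was not tested. In bulk samples, fewer cells of a type and less RNA per cell cannot be told apart.

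Levels between genes were compared as CPM per kilobase of merged exons. Over all 18 libraries Trim28 was the most abundant at 102 ± 12.0 (SD, n = 18), followed by Ehmt2 at 42.7 ± 3.69 and Cbx1 at 40.1 ± 5.93. Cbx5 stood at 26.3 ± 4.24, and the next genes were Mphosph8 at 14.98 ± 2.39, Setdb1 at 14.4 ± 1.151 and Ehmt1 at 12.5 ± 0.612. Suv39h2 at 3.09 ± 0.706 and Cbx3 at 2.45 ± 0.494 were the lowest. Neighbours in this order were compared within libraries by an exact two-sided sign-flip permutation test, 24 tests in all. Over 18 libraries, Ehmt2 and Cbx1 did not differ beyond their spread (adjusted exact p = 0.181), nor did Mphosph8 and Setdb1 (adjusted exact p = 0.45). Within the sexes the order at these places differed: Mphosph8 exceeded Setdb1 in 8 of 8 male libraries, and Setdb1 exceeded Mphosph8 in 8 of 10 female libraries. Dividing by the longest transcript in place of merged exons put Cbx1 above Ehmt2 and Cbx3 above Suv39h2.

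The Cbx3 level is uncertain, since GENCODE lists 8 pseudogenes named after it. No source used here says how reads shared with such copies were counted. Suv39h2 overlaps Dclre1c and Setdb1 overlaps Cers2 on the opposite strand, and the strand setting of the counting is also unknown. In the coordinates of the count tables (GRCm38), the methyltransferase genes were Setdb1 (ENSMUSG00000015697) at chr3:95323525-95357202, Ehmt1 (ENSMUSG00000036893) at chr2:24790769-24919609, Ehmt2 (ENSMUSG00000013787) at chr17:34898469-34914052 and Suv39h2 (ENSMUSG00000026646) at chr2:3455815-3475031. Trim28 (ENSMUSG00000005566) was at chr7:13024152-13031035 and Mphosph8 (ENSMUSG00000079184) at chr14:56668248-56697430. The HP1 genes were Cbx1 (ENSMUSG00000018666) at chr11:96789127-96808640, Cbx3 (ENSMUSG00000029836) at chr6:51470360-51483704 and Cbx5 (ENSMUSG00000009575) at chr15:103191544-103239816.

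RefSeq promoters (GRCm38.p6, 250 bases before the start nearest to that of the count table) were matched for all 9 genes. Those of Suv39h2, Cbx1 and Cbx5, whose levels moved together between libraries, and that of Mphosph8, which differed between the sexes in the opposite direction, are shown for comparison. Each is the stretch outside any GENCODE exon, 5′ to 3′ on the strand of the gene, and capitals mark CCAAT on the reverse strand (ATTGG). Suv39h2 is shown from chr2:3475032-3475236, Cbx1 from chr11:96788885-96789126, Cbx5 from chr15:103239853-103240102 and Mphosph8 from chr14:56668125-56668247, with Suv39h2 and Cbx5 on the minus strand and the others on the plus strand.
Suv39h2: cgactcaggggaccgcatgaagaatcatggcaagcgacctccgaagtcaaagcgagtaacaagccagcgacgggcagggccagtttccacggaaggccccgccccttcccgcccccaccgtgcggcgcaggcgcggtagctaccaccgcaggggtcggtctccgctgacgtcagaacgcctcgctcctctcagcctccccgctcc
Cbx1: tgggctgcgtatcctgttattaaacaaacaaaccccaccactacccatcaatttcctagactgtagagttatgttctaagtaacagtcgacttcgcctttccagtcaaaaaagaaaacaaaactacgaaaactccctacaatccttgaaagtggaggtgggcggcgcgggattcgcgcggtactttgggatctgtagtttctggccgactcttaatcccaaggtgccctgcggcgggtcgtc
Cbx5: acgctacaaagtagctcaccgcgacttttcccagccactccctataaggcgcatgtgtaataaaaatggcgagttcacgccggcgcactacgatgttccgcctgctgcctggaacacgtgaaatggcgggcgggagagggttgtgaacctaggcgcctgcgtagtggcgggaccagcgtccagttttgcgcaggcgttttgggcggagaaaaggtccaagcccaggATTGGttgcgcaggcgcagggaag
Mphosph8: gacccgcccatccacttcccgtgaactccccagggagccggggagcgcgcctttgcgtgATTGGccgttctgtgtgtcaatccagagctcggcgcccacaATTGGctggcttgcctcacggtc
The 3 motifs searched, on both strands of the 250 bases, do not overlap in these genes. CCAAT stood at -24 to -20 in Cbx5, at -64 to -60 and -23 to -19 in Mphosph8 and at -249 to -245 in Setdb1, and in 33.8% of the 32851 promoters of the table. Letters often read as an E2F site (TTTCCCGC, TTTGGCGC, TTTCGCGC or TTTGCCGC), known from genes of DNA replication, were in 1.86% of all promoters and among the 9 genes in that of Cbx3 alone. The RefSeq start of Cbx3 lies 256 bases inside the gene as counted. Its 250 bases, this site included, thus lie within that gene. The letters of the cell cycle homology region, TTTGAA or TTCGAA, were in 17.1% of promoters and in none of the 9. All 9 promoters were rich in CpG, with 13 in Setdb1 to 29 in Cbx3 against a median of 6 in the table. Their GC content ran from 49.6% in Cbx1 to 73.2% in Cbx3, where the median of the table was 52.4%.

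No change of the 9 genes with the loss of the second Smchd1 allele passed the test. In females 0 of 9 were called by edgeR's quasi-likelihood test at a Benjamini-Hochberg adjusted p under 0.05, where 0.252% of 13501 tested genes were called. In males 0 of 9 were called beside 0.119% of 13413 genes, and over both sexes, with sex as a term, 0 of 9 beside 0.556% of 14017 genes. None reached an unadjusted p under 0.05 either, a level reached by 4.3% of genes in females, 3.34% in males and 6.76% over both sexes, and DESeq2 and limma voom called none. The smallest adjusted p of edgeR for any of the 9 was 0.748, for Suv39h2 over both sexes. In the authors' deposited table the smallest adjusted p of these genes was 0.9758 in females and 0.9998 in males.

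The methyltransferase genes Setdb1, Ehmt1 and Ehmt2 had the smallest SE of the 9 in the pooled fit, between 0.04 and 0.06 on the log2 scale. Setdb1, which trimethylates H3K9 at repeats, had 91.0 to 117 CPM in female del/+ and 88.2 to 109 in female del/del libraries, and 93.7 to 100.1 and 91.2 to 104 CPM in the corresponding males. Ehmt1 lay between 90.7 and 108 CPM in all 18 libraries, the narrowest relative range of the 9 genes, with a coefficient of variation of 4.91%. Ehmt2 lay between 195.8 and 267 CPM. The genotypes overlapped in each sex for all 3 genes. Over both sexes the fold of del/del over del/+ was 0.989 for Ehmt1, with a 95% interval from 0.933 to 1.05. It was 0.965 for Setdb1 (0.891 to 1.04) and 1.004 for Ehmt2 (0.918 to 1.10).

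Suv39h2, a methyltransferase of pericentric heterochromatin, had the lowest estimate in both sexes without passing the test. Female del/+ libraries had 16.9, 16.7, 21.6, 13.4 and 14.5 CPM, and female del/del libraries 14.1, 15.7, 15.3, 15.8 and 10.6 CPM. Male del/+ libraries had 13.1, 12.4, 12.1 and 10.9 CPM, and male del/del libraries 13.2, 11.1, 8.94 and 9.23 CPM. The groups overlapped in both sexes: the fifth female del/del library was the lowest of the females, and the first male del/del library the highest of the males. The log2 fold change was -0.23 (SE 0.15) in females, -0.19 (SE 0.14) in males and -0.21 (SE 0.10) over both (unadjusted p = 0.0555, adjusted p = 0.748, edgeR). The 95% interval of the pooled fold ran from 0.745 to 1.004.

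Trim28, the KRAB co-repressor, had an SD of 71.9 CPM among del/del and 34.0 CPM among del/+ females, a difference that was not tested. Female del/+ libraries had 407, 470.1, 441, 495 and 436 CPM, and female del/del libraries 363, 535, 381, 456 and 382 CPM. Male del/+ libraries had 396, 470.5, 375 and 426 CPM, and male del/del libraries 384, 469.5, 364 and 388 CPM. Both the highest and the lowest female library were del/del, and the male groups overlapped almost wholly. The pooled log2 fold change was -0.08 (SE 0.07, adjusted p = 0.853).

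The HP1 genes Cbx1 (HP1 beta), Cbx3 (HP1 gamma) and Cbx5 (HP1 alpha) had negative estimates in both sexes, none called. Cbx1 was at 197, 187, 195, 199 and 185 CPM in female del/+ and at 195.1, 196.04, 177, 205 and 139.5 CPM in female del/del libraries. In males it was at 177, 164, 149 and 153 CPM in del/+ and at 162, 151.5, 129.9 and 126 CPM in del/del libraries. The fifth female del/del library lay below all other females, and without it the female log2 fold change of Cbx1 went from -0.08 (SE 0.10) to 0.0003 (SE 0.07). The male value, -0.17 (SE 0.09), had the smallest unadjusted p of the 9 genes in that sex, 0.0941 (adjusted p = 0.9998, edgeR).

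Cbx5 was at 286, 275, 300.4, 258 and 248 CPM in female del/+ and at 245, 263, 264, 288 and 195.6 CPM in female del/del libraries. In males it was at 232, 203.4, 199 and 204 CPM in del/+ and at 232, 202.6, 176 and 193.8 CPM in del/del libraries. The fifth female del/del library was again the lowest female, at the level of the males. Cbx3 was at 16.8, 19.3, 14.1, 21.1 and 14.3 CPM in female del/+ and at 13.1, 17.8, 14.1, 18.7 and 11.6 CPM in female del/del libraries. Its male libraries had 14.7, 12.0, 14.2 and 11.8 CPM in del/+ and 15.2, 12.2, 10.9 and 11.9 CPM in del/del. All these groups overlapped. Over both sexes the log2 fold change was -0.12 (SE 0.07) for Cbx1, -0.13 (SE 0.11) for Cbx3 and -0.10 (SE 0.07) for Cbx5, with adjusted p of 0.799 or more.

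Mphosph8, the chromodomain subunit of HUSH, was at 52.0, 40.6, 55.8, 48.3 and 49.5 CPM in female del/+ and at 53.4, 41.9, 48.6, 40.9 and 42.9 CPM in female del/del libraries. In males it was at 58.7, 58.1, 59.2 and 65.7 CPM in del/+ and at 59.8, 65.1, 60.7 and 65.6 CPM in del/del libraries. The genotypes overlapped in both sexes, while every male library lay above every female one. The genotype estimate was -0.12 (SE 0.10) in females and 0.06 (SE 0.06) in males. The difference between these, -0.17 (SE 0.13), was not called by the interaction term (adjusted p = 0.9999), nor was that of any of the 9 genes, in a test that called 0% of all genes with edgeR. At an unadjusted p under 0.05 that test had 1.45% of genes and none of the 9, and DESeq2 called 4 genes.

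**Figure D1:**
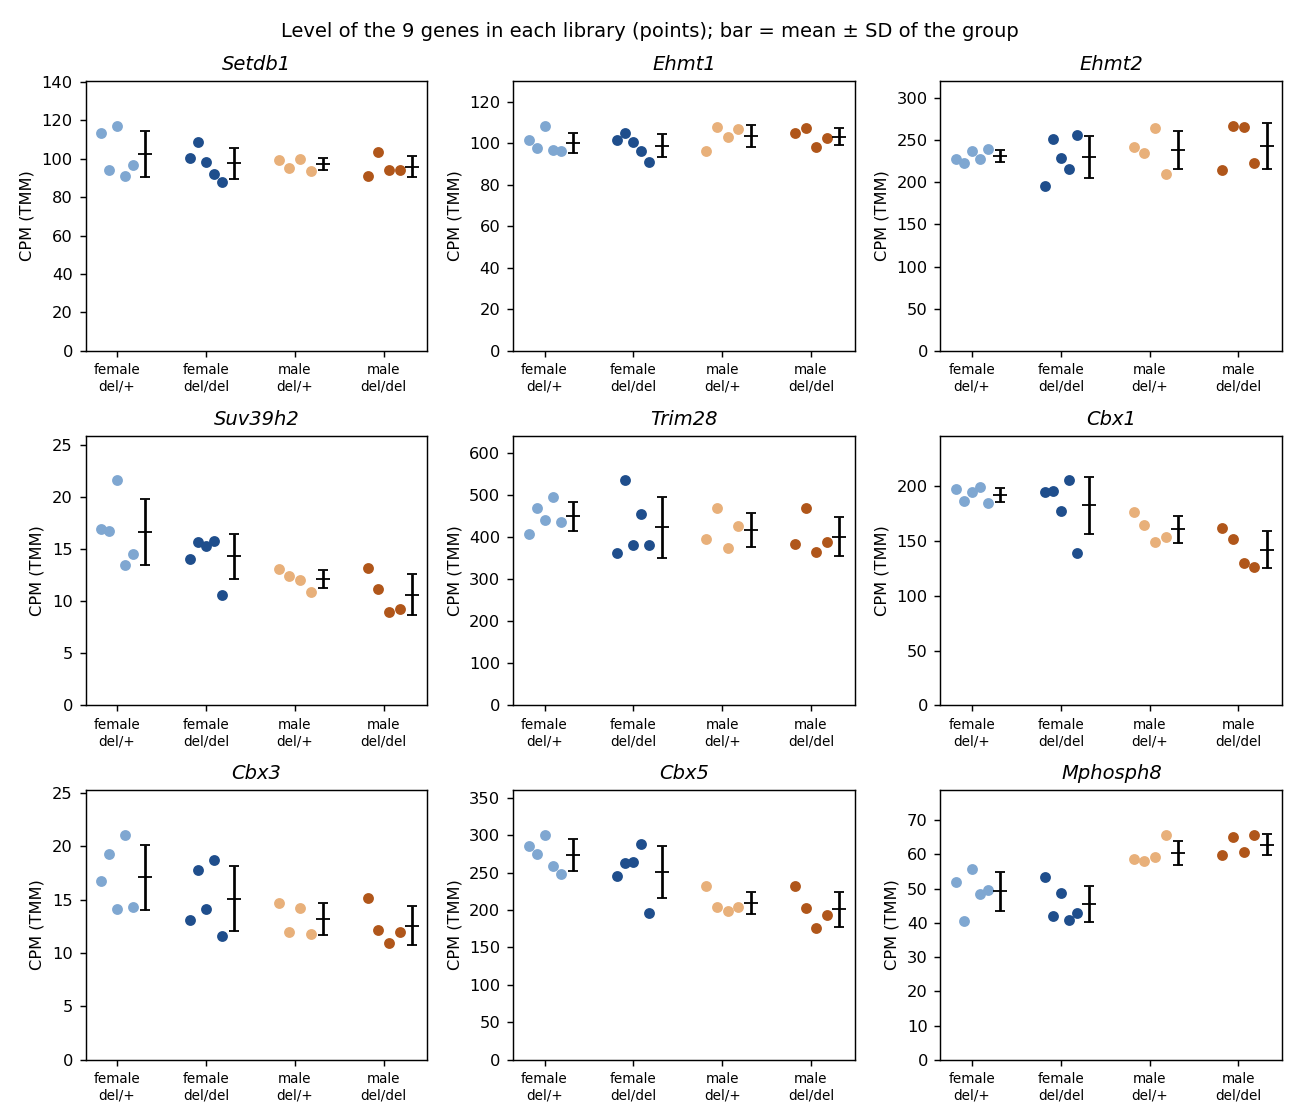
Level of each of the 9 genes in every library, as TMM-scaled CPM on linear axes from 0, with libraries as points and the group mean ± SD as a bar beside them. The del/+ and del/del libraries of a sex overlap in each panel, and the Mphosph8 panel has all males, at 58.1 CPM or more, above all females, at 55.8 CPM or less.

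The estimates leaned to the negative side, by small amounts. Of the 9 log2 fold changes, 9 were negative in females (median -0.09), 7 in males (median -0.05) and 8 over both sexes (median -0.08). Negative values made up 51.2%, 49.4% and 50.1% of all genes in these comparisons, whose medians were -0.004, 0.001 and -0.0005. Some of the 9 genes vary together between libraries, as described below, and no test of the list was made. In the same comparisons the 22 cell cycle markers also had negative estimates, 22 of 22 in each sex, with a median of -0.22 in females and -0.13 in males and none called. The 11 markers of pro-B and pre-B cells were negative in both sexes (medians -0.14 and -0.29). Markers of plasmacytoid dendritic cells were on the positive side, 12 of 12 in females and 11 of 12 in males (medians 0.41 and 0.45), and over both sexes 1 of them was called. The 11 erythroid markers were all negative in each sex (medians -0.94 and -0.69).

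With the mean level of cell cycle, plasmacytoid dendritic cell or erythroid markers as a covariate, none of the 9 genes was called in females, in males or over both. Summed CPM of the 22 cell cycle markers ranged from 5497 to 6841 in female del/+ and from 3688 to 7064 in female del/del libraries. In males the sums ranged from 3376 to 4393 and from 2930.4 to 4189. The fifth female del/del library was the lowest female for Setdb1 (88.2 CPM), Ehmt1 (90.7 CPM), Suv39h2, Cbx1, Cbx3 and Cbx5. For Ehmt2 it was the highest female (255.6 CPM), and for Trim28 and Mphosph8 it was neither. This library also had the lowest mean log2 CPM of the cell cycle markers among females, 6.91. It was the lowest female in pro-B and pre-B markers too (7.17). In markers of mature B cells (8.67), plasmacytoid dendritic cells (7.38) and myeloid cells (6.94) it was the highest female. The part of any of these in its gene levels was not tested.

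**Figure D2:**
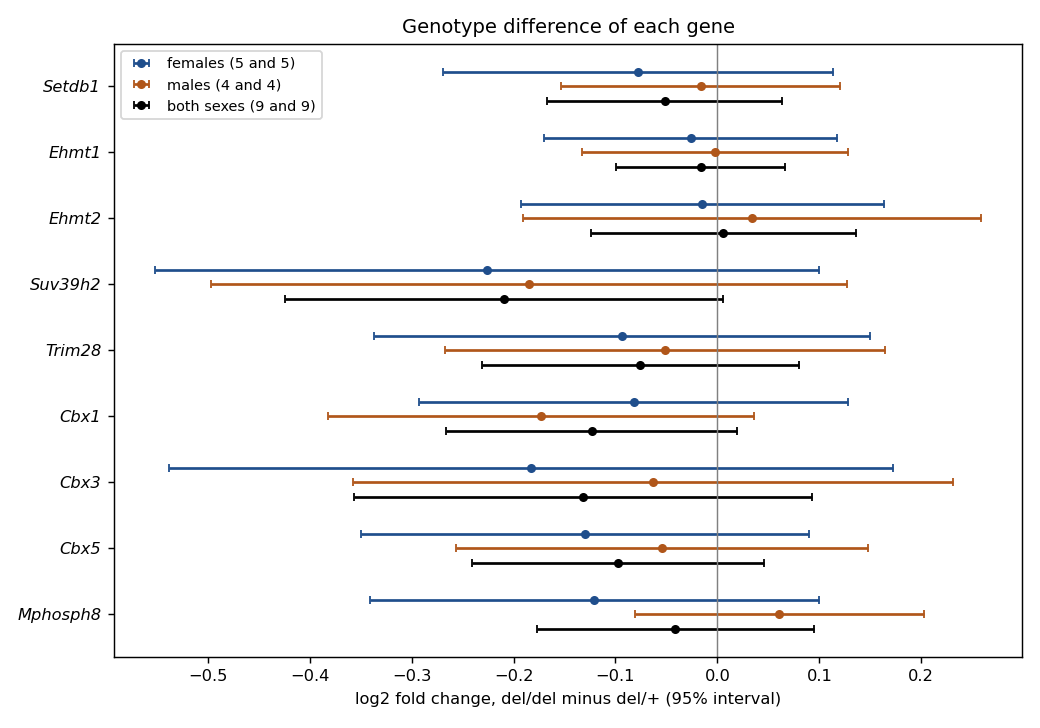
Log2 fold change of del/del over del/+ for each of the 9 genes (points) with 95% intervals (bars), from the female, male and pooled fits of edgeR. Every interval crosses 0, and the lowest points are those of Suv39h2, at -0.23, -0.19 and -0.21.

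Other genes of the pathway, in 7 lists that sort them by role, also held no call. All 60 listed genes were found, and 42 passed the filter on low counts. In females, in males and over both sexes 0 of 42 were called, beside 0.252%, 0.119% and 0.556% of all genes. At an unadjusted p under 0.05 the pooled fit had 6.76% of all genes and 4 of the 42, of which 2 were on each side. On the positive side were the SETDB1 partner Atf7ip (0.15, SE 0.07) and the chromodomain co-repressor Cdyl (0.12, SE 0.05). On the negative side were the HP1-binding protein Adnp (-0.10, SE 0.05) and the histone demethylase Phf8 (-0.11, SE 0.05). Several rows bore the symbol Atf7ip, and only that of most reads was used. Cdyl was at 28.7 ± 0.413 CPM (SD, n = 5) in female del/+ and 33.3 ± 2.50 CPM (n = 5) in female del/del libraries, and at 32.2 ± 1.89 and 32.5 ± 1.83 CPM (n = 4 each) in the males. The female groups of Cdyl did not overlap (28.1 to 29.1 against 30.6 to 36.7 CPM), as in 0.837% of genes in that direction. Those of Adnp did not overlap either (226.6 to 240.8 against 191 to 225.6 CPM), as in 0.193% of genes in the lower direction. In the males the groups of both genes overlapped.

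Of the 4 further writers tested all had positive pooled estimates, and the 2 of smallest p were Prdm16 (0.81, SE 0.49) and Prdm2 (0.08, SE 0.08). Prdm16 was near the limit of detection, at 0.155 to 4.48 CPM. The 4 HUSH-related genes were positive by 0.07 or less, including Tasor (0.07, SE 0.11) and Tasor2 (0.06, SE 0.09). Of the 8 HP1 partners 5 were positive and 3 negative, with Lbr, the lamin B receptor that binds HP1, at -0.10 (SE 0.05). Of the 10 demethylases 4 were positive and 6 negative, and Phf2 was at -0.11 (SE 0.07). Among the KRAB zinc finger genes tested, 5 of 7 were positive, with Zfp445, known from imprinting control, at 0.13 (SE 0.10) and Zfp932 at 0.18 (SE 0.15). None of these values passed the test.

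Most of the listed germline genes, which H3K9 and DNA methylation keep silent in somatic cells, had few reads. Of 15 listed, 13 did not pass the filter, with 0 to 73 reads over all 18 libraries together, of which Mael, Sycp1, Dpep3 and Zfp42 had 0. The 2 that passed were Brdt and Sycp3. Brdt had at least 60 counts in every library and was at 7.22 ± 1.49 CPM in female del/+ and 7.57 ± 1.28 CPM in female del/del ones (mean ± SD, n = 5 each). In males Brdt was at 5.74 ± 0.453 CPM in del/+ and lower, at 5.09 ± 0.774 CPM, in del/del libraries (n = 4 each). Sycp3 was at 1.02 ± 0.236 CPM in female del/+ and 0.658 ± 0.533 CPM in female del/del libraries, a difference within their spread. Its male levels were 0.835 ± 0.241 CPM in del/+ and 0.661 ± 0.183 CPM in del/del libraries. Neither gene was called in either sex.

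The female and male libraries differed in 5 of the 9 genes, in a comparison that called 42.6% of all genes. Suv39h2, Cbx5, Cbx3 and Cbx1 were higher in females (21.5% of all genes were), and Mphosph8 was lower (21.1%). As 5 of 9 is 55.6%, the count was near that of genes in general. Suv39h2 was higher by 0.45 on the log2 scale (SE 0.10, adjusted p = 0.00193, edgeR), with a fold of 1.36 and a 95% interval from 1.17 to 1.59. Cbx5 was higher by 0.36 (SE 0.07, adjusted p = 0.000412), Cbx3 by 0.32 (SE 0.11, adjusted p = 0.0225) and Cbx1 by 0.31 (SE 0.07, adjusted p = 0.00123).

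Mphosph8 fell on the other side, at -0.37 (SE 0.07, adjusted p = 0.000156), with a fold of 0.772 of females over males and an interval from 0.702 to 0.848. It was the only one of the 9 whose female and male libraries did not overlap, with a mean of 47.4 ± 5.52 CPM in 10 females and 61.6 ± 3.30 CPM in 8 males. Without an overlap, lower in females, were 4.18% of all genes. Setdb1 (0.06, SE 0.06), Ehmt1 (-0.05, SE 0.04), Ehmt2 (-0.06, SE 0.06) and Trim28 (0.10, SE 0.07) were not called. Their folds had 95% intervals between 0.877 and 1.19. In the del/+ libraries alone, 4 of the 9 were called, Cbx3 being lost (adjusted p = 0.0782). In the del/del libraries alone, Mphosph8 was called (-0.45, SE 0.09, adjusted p = 0.0104) and the other 4 kept their direction at adjusted p of 0.0552 to 0.261.

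Markers of cell stage differed between the sexes in the same fit. The 22 cell cycle markers were all called higher in females (median 0.64), and of 11 pro-B and pre-B markers 7 were. The 11 mature B cell markers were all called lower (median -0.73), with summed levels of 4671 to 11060.0 CPM in females and 11827 to 17749 CPM in males. All 12 plasmacytoid dendritic cell markers were called higher (median 1.06), with sums of 2904 to 4283 CPM in females and 2244 to 2763 CPM in males. Much of these sums was Spib, at 1142 to 2087 CPM over all libraries, and Irf8, at 581 to 1111 CPM. Siglech had group medians of 224 (del/+) and 381 CPM (del/del) in females and 82.9 and 133 CPM in the corresponding males. In none of the marker lists named here was a gene at 0 in all libraries.

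With the cell cycle marker level as a covariate, a fit added after the data had been seen, none of the 9 was called. The female excess of Suv39h2 went to 0.17 (SE 0.14), that of Cbx5 to 0.14 (SE 0.09) and that of Cbx1 to 0.10 (SE 0.09), while Cbx3 went to -0.03 (SE 0.14). Mphosph8 remained lower at -0.27 (SE 0.10, adjusted p = 0.0853), where its SE without the covariate was 0.07. This covariate also differed between the sexes, at 6.91 to 7.83 in female and 6.63 to 7.18 in male libraries on the log2 scale. The parts of sex and of the cell cycle markers thus cannot be told apart well. With the mature B cell marker level as covariate, also added later, none was called, and Mphosph8 stood at -0.21 (SE 0.13). That covariate is nearly the same as sex, since its female range ended at 8.67 and its male range began at 8.76 on the log2 scale. The plasmacytoid dendritic cell marker level as covariate was a later addition too. With it 5 were called, with Trim28 gained at 0.33 (SE 0.12, adjusted p = 0.0462) and Cbx3 lost at an adjusted p of 0.05003. This covariate also differed between the sexes, at 6.14 to 7.38 in female and 5.53 to 6.18 in male libraries on the log2 scale. The parts of sex and of these markers thus cannot be told apart well either.

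**Figure D3:**
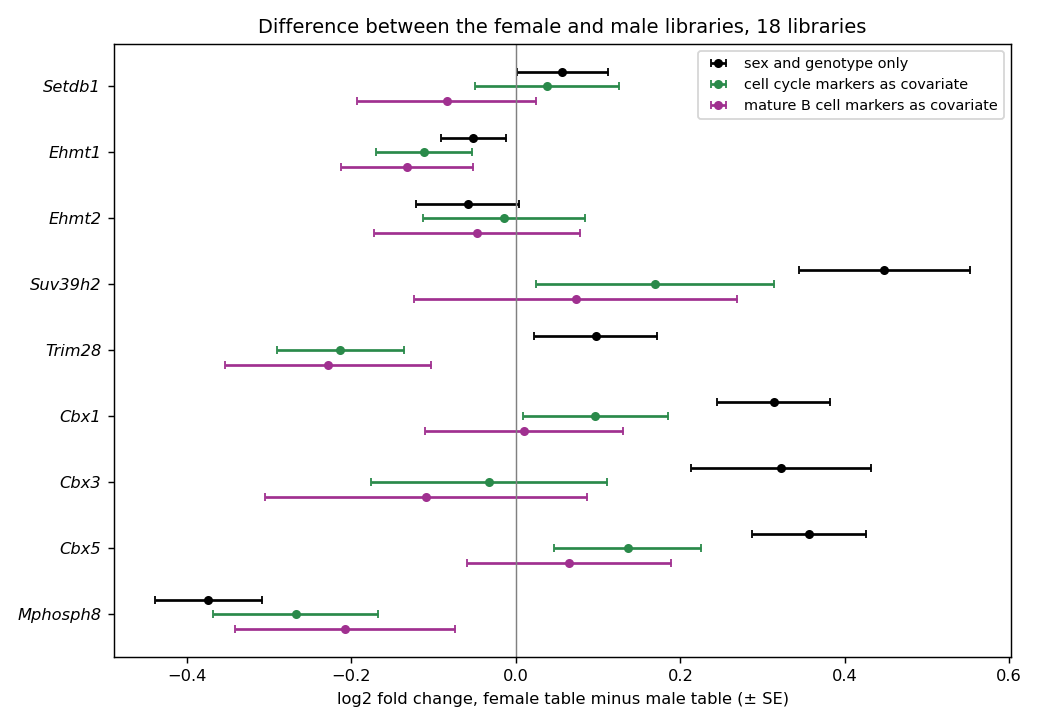
Log2 fold change of the female over the male libraries (points) with SE (bars) for each gene, in the fit with sex and genotype alone and with the level of cell cycle or mature B cell markers as covariate. The 4 genes to the right in the first fit, between 0.31 and 0.45, move to between -0.03 and 0.17 with the cell cycle covariate. Both covariates themselves differ between the sexes.

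Related genes were called between the sexes in both directions, 16 of 42 (38.1%) beside 42.6% of all genes. Of the 16, 7 were higher and 9 lower in females, where 21.5% and 21.1% of all genes were. Higher were Suv39h1, the X-linked paralog of Suv39h2 (0.43, SE 0.10), Uhrf1, which reads H3K9 methylation at replicating DNA (0.61, SE 0.13), and Chaf1a, a replication-linked histone chaperone that binds HP1 (0.64, SE 0.12). The demethylase Phf2 (0.49, SE 0.07) was higher and the demethylases Kdm7a (-0.65, SE 0.10) and Jmjd1c (-0.28, SE 0.06) were lower. Setdb2 (-0.42, SE 0.06), Prdm2 (-0.45, SE 0.08), the HP1-binding genes Bahd1 (-0.50, SE 0.06) and Lrif1 (-0.43, SE 0.13) and the HUSH-related Tasor2 (-0.35, SE 0.09) were lower in females. Pphln1, which encodes another HUSH subunit, was higher (0.20, SE 0.07), opposite to Mphosph8. These genes were named here after their values were seen. With the cell cycle covariate 3 of the 42 genes were called.

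Within groups, Suv39h2, Cbx5 and Cbx1 varied together. After the mean of each of the 4 groups was subtracted, log2 CPM of Suv39h2 and Cbx5 correlated at r = 0.889 over 18 libraries (0.894 in females, 0.879 in males). Cbx1 correlated with Cbx5 at 0.84 and with Suv39h2 at 0.716. Of the 36 pairs of the 9 genes 8 were over 0.5, and the median was 0.272. Cbx3 and Mphosph8 went in opposite directions (r = -0.542). Setdb1 and Ehmt1 correlated at 0.902 in females and -0.027 in males, a difference that was not tested. The libraries share depth, scaling and cell makeup, so these values are descriptions without a test.

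**Figure D4:**
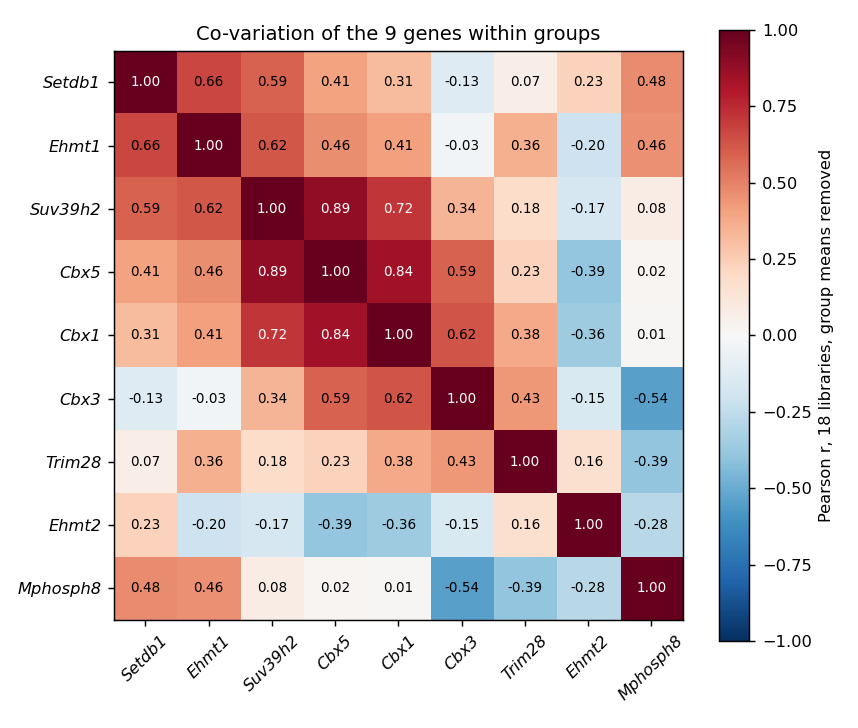
Pearson correlation of log2 CPM between the 9 genes over 18 libraries after removal of group means, on a colour scale from -1 to 1. The block of Suv39h2, Cbx5 and Cbx1 has values of 0.716 to 0.889, and Ehmt2 and Mphosph8 stand outside it.

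The genes most like each member by the same measure, the highest of 11906 compared, differed between the members. Each member had such a gene at 0.857 or more, and no theme among these genes was tested. For Suv39h2 they were Atad5 (0.92), Rbl1 (0.915) and Cenpc1 (0.898), which are known from DNA replication, cell cycle control and the centromere. For Cbx5 they were Gen1 (0.942), Kif18a (0.923) and Mastl (0.915), the last 2 of which act in mitosis, and for Cbx3 Rpia, Fancl and Haus2 (0.86 to 0.872). For Trim28 they were Prmt5 (0.959), Rcc2 (0.954) and Ruvbl2 (0.952). Ehmt2 was most like Rbck1 (0.948), Rxrb and Strn4, and Mphosph8 most like Zbtb9 (0.916), Ggnbp1 and Zfp655. For Cbx1 these genes were Zfp422, Pdhb and Btbd10 (0.926 to 0.943), for Setdb1 Eya3, Aagab and Crot (0.836 to 0.932), and for Ehmt1 Cog4, Ccdc43 and Zfp146 (0.834 to 0.857).

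Each gene was also set against the level of cell cycle and of mature B cell markers, within each sex, in 36 relations chosen after the data had been seen. Here the del/+ and del/del libraries of a sex were pooled, without removal of group means. Of the 36 relations 1 passed the correction. The share of all genes with so close a relation was not tested. This count thus does not set the genes examined apart from genes in general. Trim28 rose with the cell cycle markers over the 10 female libraries (r = 0.881, permutation p = 0.00047, adjusted p = 0.0169, Spearman's rho = 0.915, permutation p = 0.00067, adjusted p = 0.0241). Without the 2 libraries farthest from the median of the markers r was 0.897. In the 8 males r was 0.735 (exact permutation p = 0.0417, adjusted p = 0.125) with a rho of 0.69 (exact permutation p = 0.0694, adjusted p = 0.268), and 0.641 without the 2 farthest. For Cbx3 in females r was 0.802 (permutation p = 0.00556) and for Cbx1 in males 0.811 (exact permutation p = 0.0144), neither of which passed the correction, and without the 2 farthest libraries these were 0.561 and 0.375. For Cbx5 in females r fell from 0.724 to 0.0646 without the 2 farthest libraries and for Suv39h2 in males from 0.757 to 0.114, so both rested on those.

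**Figure D5:**
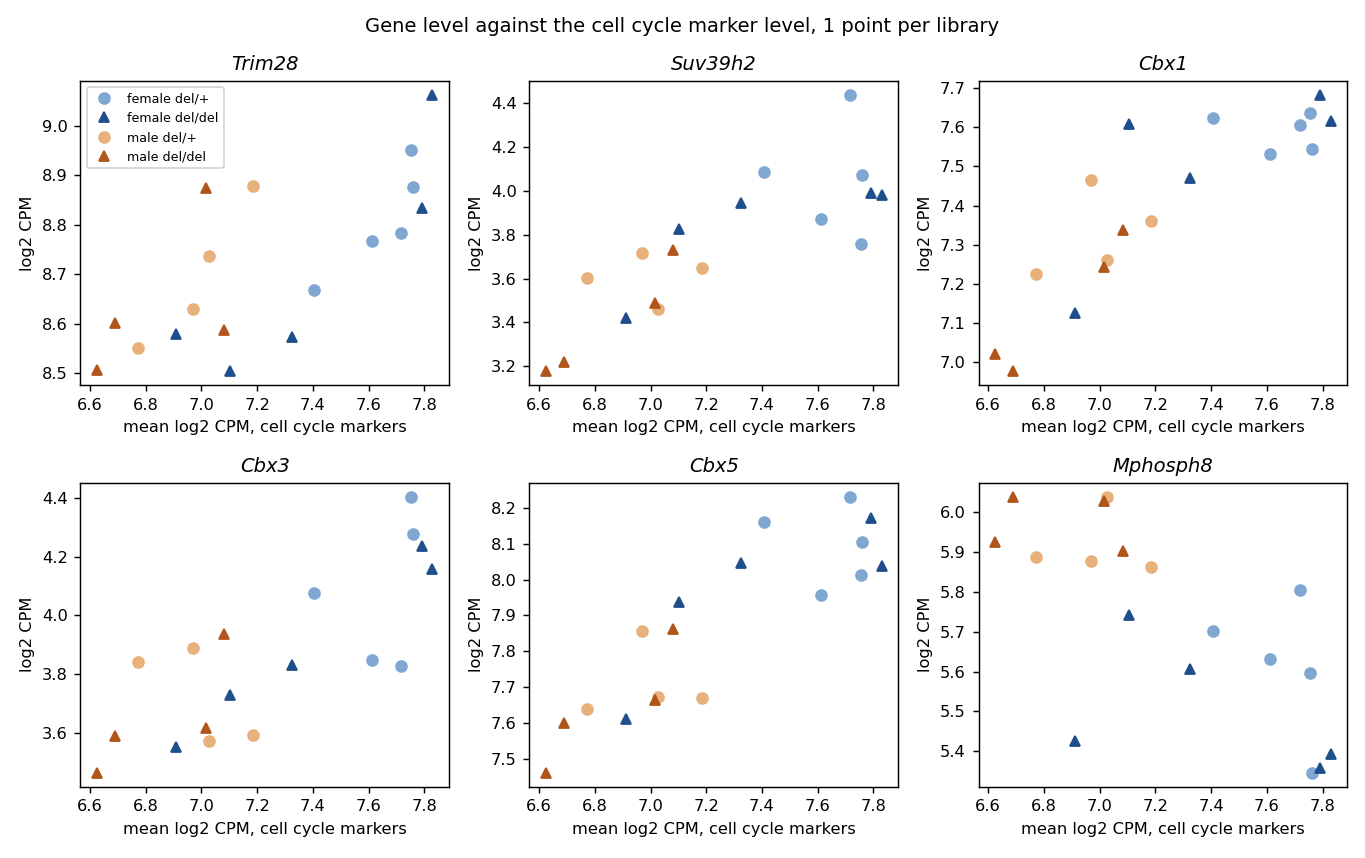
Log2 CPM of 6 of the genes (y axes) against the mean log2 CPM of 22 cell cycle markers (x axes), with 1 point per library, circles for del/+ and triangles for del/del. Trim28 climbs with the markers within females, from 8.50 to 9.06. Mphosph8 is lower in females, whose markers are mostly higher. Its r with the markers was -0.23 within females and -0.20 within males, and neither passed the correction.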

How the data were processed

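RNA-seq of 18 libraries of sorted bone marrow B cells was analysed. As deposited by the authors, the values are raw read counts, with 1 table for females and 1 for males. The submitters' processing notes name TopHat, Trim Galore, FastQC, bcl2fastq, edgeR 3.32.1 and the builds mm10 and GRCm38, while the counting program is not given in the sources used. The authors also deposited 4 columns of group means (an averaged signal), not used here, and log2 fold changes, p-values and F statistics (a score) per gene, quoted only as the authors' deposited table. Of 25965 rows, 56 lacked an identifier (at most 0.0846% of counts). They were kept, since they name a symbol. GENCODE M21 held 24990 of the identifiers.

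Counts were tested in R 4.3.3 with edgeR 4.0.16 (TMM, filterByExpr with minimum count 10 and total 15, quasi-likelihood test, Benjamini-Hochberg over all genes). Genotype was tested within each sex, over 18 libraries with sex as a term, and as an interaction, and sex with genotype as a term. The SE is the log2 fold change over the square root of F. Log2 CPM used a prior count of 2. Alternatives were DESeq2 1.42.0, limma voom 3.58.1, other scalings, no filter, marker covariates, a replicate block and each library left out. The scripts were tested on simulated data.

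The members and lists were chosen with earlier results of these data known. Named were the 9 genes, the 2 tested genes of smallest pooled genotype p in each pathway list and any called, and for each member the 3 genes of highest r. Of 122 marker genes 121 were found. Libraries of nearest animal number correlated in their deviations at -0.031 to 0.297 and were not treated as pairs in the main fits. The replicate block within each sex was made of such pairs.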

Additional observations from a re-analysis of the deposited data

Results flagged for a closer look

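Of 92 groups of 4 or 5 libraries examined, 4 had a library far from the others, and chance flags about 1 in 20. Cbx5 in the first male del/+ library was at 231.7 CPM, where the other 3 were at 199 to 204. Mphosph8 in the fourth male del/+ library was at 65.7 CPM, where the others were at 58.1 to 59.2. Prdm16 in the second female del/del library was at 4.48 CPM, where the others were at 0.155 to 1.11, and this gene is near the limit of detection in all groups. Adnp in the first female del/+ library was at 240.8 CPM, where the others were at 227 to 230.2. The other del/+ females also lay above all del/del females, the highest of which was at 225.6 CPM.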

How the results depend on the processing

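In the genotype comparisons 0 of the 9 genes and 0 of 42 pathway genes were called in any of 90 alternatives, with 0.453, for Suv39h2, the smallest adjusted p of a member. Counts of called genes moved more. Females had 34 calls, 92 with DESeq2, 58 in a fit of all 18 libraries, 18 with the erythroid marker covariate and 26 to 41 with 1 library left out. Males had 16, 49 with DESeq2, 5 with the plasmacytoid dendritic cell covariate and 5 to 22 with 1 library left out, with 5 without the first del/+ or the third del/del library, 6 without the first del/del, 9 without the fourth del/+ and 10 without the fourth del/del library. Both sexes together had 78, 141 with DESeq2 and 57 to 115 with 1 left out, and the interaction 0, or 4 with DESeq2. With a replicate block of nearest animal numbers females had 23 calls and males 13, and 0 of the 9 genes were called. Correlations of deviations exceeded 0.1 in 3 of 5 female and 3 of 4 male such pairs, so the block is a hint from the data.

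Between the sexes 5977 genes were called, 1838 with the cell cycle and 616 with the mature B cell covariate, 3533 in del/+ and 2314 in del/del libraries. Of the 9 genes 5 were called, and 0, 0, 4 and 1 in these fits, with Cbx3 at -0.033 and -0.11, the reverse direction, under the 2 covariates. Of the pathway genes 16 were called, and 3, 0, 10 and 7. These 4 fits, like that with the plasmacytoid dendritic cell covariate, were chosen after seeing the data. The last 2 of the 4 held fewer libraries. The cause of the differences in calls was not tested. With any 1 library left out, 5 of the 9 genes were called. Suv39h2 and Cbx3, with at least 198 and 228 counts in each female library, had female genotype intervals with lower ends at folds of 0.682 and 0.688.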

Other observations

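Zfp57, a KRAB zinc finger gene known for the protection of imprints, was too low to be tested, with 40 reads over all libraries. Of these, 28 came from 1 library, the second male del/+ library, and the rest from 4 others. This library also had the highest mean log2 CPM of erythroid markers, 5.11, against 2.06 to 4.32 in the other 17. The part of such cells in the Zfp57 reads was not tested.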
